A study of Mus musculus with 32 samples.

Results

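The genes Plau, Plat, Plaur, Serpine2, Timp1, Timp2 and Timp3 encode plasminogen activators, a receptor for one of them, and inhibitors of extracellular proteases. They were taken by gene symbol from 4 deposited tables of gene-level read counts from RNA sequencing, and are 7 of the 20109 symbols found in all 4 tables. The series is about DDR1, which is a collagen receptor with tyrosine kinase activity, and used E0771, a mouse mammary carcinoma cell line. It holds 32 libraries in 8 groups, which fall into 4 pairs for comparison.

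In culture, Ddr1 wild-type E0771 cells (3 libraries, titled E0771-P, EV and Ctrl, with no word on how they differ) were set beside Ddr1 knockout cells (2 libraries, titled 3-6 and 3-7). Tumours in Rag1-/- hosts, mice that lack mature T and B cells but keep other immune cells, were grown from wild-type (n = 5) or knockout (n = 5) cells. In C57BL/6 hosts, which have an intact immune system, tumours transplanted from Rag1-/- mice were sampled at day 4, from wild-type (n = 4) and knockout (n = 5) cells. Day 6 tumours in C57BL/6 hosts had received IgG (n = 4) or an antibody labelled hDDR1 ECD (n = 4), and their labels give no Ddr1 genotype. All groups share the E0771 line. The labels do not say which knockout culture gave the knockout tumours, nor do they tie libraries to cultures or mice, so the p-values measure the spread between these libraries. A tumour library mixes RNA from cancer cells and host cells, so for each gene fewer cells of a type and less RNA per cell cannot be told apart.

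Libraries held from 29270919 to 37425032 reads in the culture table and from 18967300 to 25516204 in the Rag1-/- table. Day 4 libraries held 20148955 to 28600639 reads and those of day 6 held 20220028 to 39732635. Ddr1 itself fell by 3.03 on the log2 scale in knockout cultures, fell by 2.34 in Rag1-/- hosts and fell by 2.23 at day 4, with no overlap between the groups. At day 6 its mean level was 18.6 RPM (reads per 1000000 reads) under IgG and 22.1 RPM under antibody, against 150.0 to 181 RPM in the wild-type tumour groups and 33.8 to 36.7 RPM in the knockout tumour groups.

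Plasminogen is a circulating proenzyme that becomes the protease plasmin when it is cut by urokinase (uPA, from Plau) or by tissue-type plasminogen activator (tPA, from Plat). Urokinase acts at the cell surface while bound to its receptor, uPAR (from Plaur), and the serpin protease nexin-1 (from Serpine2) inhibits both activators as well as thrombin. Plasmin degrades fibrin and activates some matrix metalloproteinases, and the tissue inhibitors of metalloproteinases (from Timp1, Timp2 and Timp3) block those enzymes in turn. In tumours these proteins are known both for matrix breakdown during invasion and for signalling, and they are made by cancer cells and by stromal cells.

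In the GRCm38 annotation Plau lies on chromosome 14 (20836660 to 20843385), Plat on chromosome 8 (22757727 to 22782844), Plaur on chromosome 7 (24462484 to 24475968) and Serpine2 on chromosome 1 (79794197 to 79861180). Timp1 lies on chromosome X (20870166 to 20874735) inside an intron of Syn1, on the opposite strand and with 0 shared exon bases. Timp2 lies on chromosome 11 (118301069 to 118355740) and overlaps Cep295nl on the same strand, again with 0 shared exon bases. Timp3 lies on chromosome 10 (86300372 to 86349506) within Syn3, on the opposite strand, and shares 1733 exon bases with it. Syn3 had at most 8 reads in any library, while Syn1 had 254 to 1204. The library kit kept strand, but whether the counting used it is not given in the sources used here. Timp3 reads on the 1733 exon bases shared with Syn3 are uncertain to that extent, and the low Syn3 counts do not settle it. With 0 shared exon bases, Timp1 and Syn1 reads are uncertain only as far as RNA of the Syn1 intron was read.

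The bases before the RefSeq start of 3 members are shown for these reasons: Serpine2 and Timp3 had almost no reads in cultured cells and were present in every tumour, and the day 4 groups did not overlap for Plaur, although that difference did not pass the test. No window is printed for Plau and Plat, which have no entry in the RefSeq promoter file used here. They run 5′ to 3′ on the gene's strand in RefSeq for GRCm38.p6, each 250 bases long, and these 3 genes and the motifs were chosen after the values were seen. Capitals mark matches on either strand to TGACTCA, the AP-1 site, or to GGGCGG, the GC box.
Serpine2: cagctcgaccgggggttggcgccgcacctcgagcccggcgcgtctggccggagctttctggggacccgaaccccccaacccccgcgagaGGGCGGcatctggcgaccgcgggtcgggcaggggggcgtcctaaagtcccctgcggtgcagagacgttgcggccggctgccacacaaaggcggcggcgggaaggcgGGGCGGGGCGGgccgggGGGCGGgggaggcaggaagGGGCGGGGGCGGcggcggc
Timp3: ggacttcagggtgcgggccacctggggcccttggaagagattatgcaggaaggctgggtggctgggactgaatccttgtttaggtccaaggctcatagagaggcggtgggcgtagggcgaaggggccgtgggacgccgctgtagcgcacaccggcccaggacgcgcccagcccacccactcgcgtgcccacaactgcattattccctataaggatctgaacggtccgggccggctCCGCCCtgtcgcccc
Plaur: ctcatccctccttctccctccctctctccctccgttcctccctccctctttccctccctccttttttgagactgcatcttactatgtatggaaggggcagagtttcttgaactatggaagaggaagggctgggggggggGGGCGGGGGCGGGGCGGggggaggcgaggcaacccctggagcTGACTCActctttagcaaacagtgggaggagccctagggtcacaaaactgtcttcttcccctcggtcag
The Serpine2 window (chr1:79858666-79858915, minus strand) held 6 GC boxes, some of them sharing bases, and 34 CG dinucleotides, more than 96.47% of the 32851 promoters of that length. Timp3 (chr10:86300162-86300411, plus strand) had 1 GC box and 18 CG dinucleotides, against a median of 6 over all promoters. Plaur (chr7:24462233-24462482, plus strand) had 6 CG dinucleotides, 3 GC boxes, of which the first and the second adjoin and the second and the third share a base, and 1 AP-1 site that begins 69 bases before the start. Of all promoters 32.74% held a GC box and 4.463% held this AP-1 site. The other 2 members with a RefSeq window, Timp1 and Timp2, each had 1 GC box and no AP-1 match, and none of the 5 windows held TATAAA, which 12.37% of promoters did. These matches describe the letters only.

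To set levels side by side across the separately normalized tables, reads were divided by library totals to give RPM, and only to compare one gene with another also by exon length in kilobases. That length joins all annotated exons of a gene and can exceed that of the transcript made, so the order of genes depends on it. In day 4 wild-type tumours Plat was above Plau in RPM (318 and 167) but below it per kilobase. Per kilobase, Timp2 was the highest of the 7 in 6 of the 8 groups, at 75.2 to 266 RPM per kb. At day 4 Timp1 stood above it, with 266 ± 131 (SD, n = 4) RPM per kb for wild type and 338 ± 177 (n = 5) for knockout, against 183 ± 19.5 and 150.4 ± 8.57 for Timp2. Plaur ran at 48.8 to 159 RPM per kb and Plau at 32.0 to 70.6, and Timp1 outside day 4 at 36.2 to 94.5. Plat ran from 6.02 in wild-type culture to 51.0 in day 4 wild-type tumours. Serpine2 and Timp3 were the lowest, at most 2.21 and 6.71 RPM per kb.

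**Figure D1:**
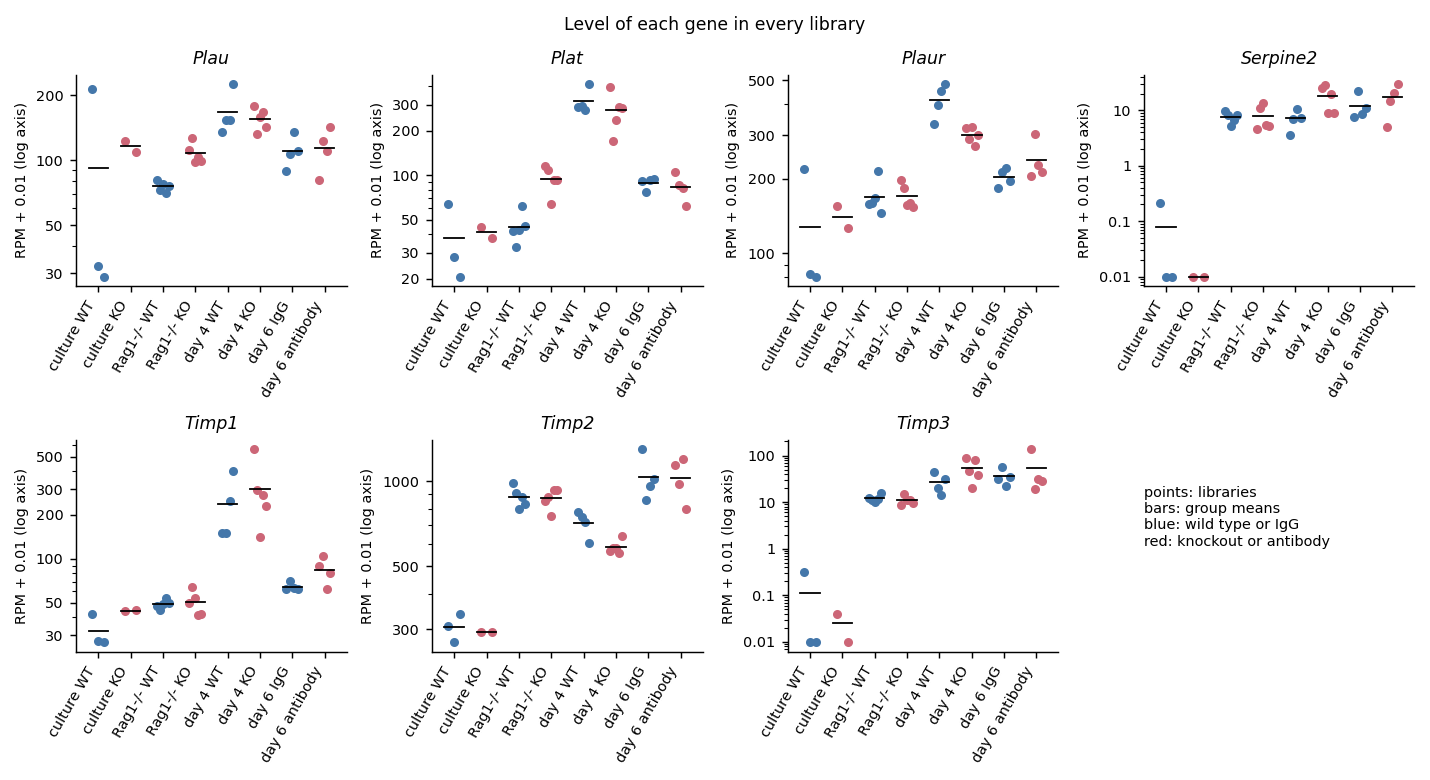
Level of each gene in RPM plus 0.01 on a log axis; each point is a library, black bars are group means, blue is wild type or IgG and red is knockout or antibody. Plat, Plaur and Timp1 were highest at day 4, Timp2 was lowest in culture, and Serpine2 and Timp3 were at or near 0 in culture.

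In RPM the groups fell into different orders for the different genes. Both activators had their highest means at day 4. Mean Plau was 167 ± 39.7 RPM in day 4 wild-type and 156 ± 18.5 in day 4 knockout tumours, and these did not differ beyond their spread. Day 4 knockout libraries began at 133 RPM, above cultured knockout cells at 116 ± 9.79 (n = 2), but day 6 IgG libraries reached 136 RPM, day 6 antibody libraries 143 RPM and the E0771-P culture 215 RPM, so those 3 groups overlapped day 4. The remaining groups, from 75.7 ± 4.11 in Rag1-/- wild-type tumours to 114 ± 26.0 under day 6 antibody, each overlapped their neighbour in the order. Plat was at 318 ± 63.7 and 275 ± 83.2 RPM in the day 4 wild-type and knockout groups, whose libraries all lay above every other library. Below them stood Rag1-/- knockout tumours at 94.5 ± 19.7, day 6 tumours at 83.4 and 89.0, and then Rag1-/- wild-type tumours at 44.9 ± 10.8 and cultured cells at 37.6 and 41.3. Each of those groups overlapped the next.

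Plaur was highest in day 4 wild-type tumours, at 417 ± 65.5 RPM, with day 4 knockout tumours next at 301 ± 22.4 and no overlap between the pair. The other groups formed an unbroken series of overlapping ranges down to cultured wild-type cells at 128 ± 79.8. Timp1 ran from 32.1 ± 8.67 RPM in cultured wild-type cells to 300.1 ± 157 in day 4 knockout tumours, with a gap between day 6 antibody tumours (83.9 ± 17.7) and day 4 wild-type tumours (236 ± 116). The cultured groups did not overlap each other for Timp1, but Rag1-/- knockout tumours, at 41.6 to 64.2 RPM, overlapped both of them, and the Rag1-/- and day 6 groups overlapped step by step. Timp2 had another order, lowest in culture at 293 and 306 RPM, then day 4 knockout (586 ± 33.4) and wild-type (714 ± 76.1) tumours, Rag1-/- tumours at 871 and 881, and day 6 tumours at 1029 and 1035. The tumour groups for Timp2 each overlapped the next, while culture and tumours did not overlap.

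Serpine2 and Timp3 had few or no reads in cultured cells and reads in every tumour library. Among the cultured libraries Serpine2 had 6 reads in the E0771-P library and 0 in the other 4, and Timp3 had 9 reads in the E0771-P library, 1 in knockout 3-6 and 0 in the other 3. A count of 0 allows up to 3 reads in a library, for counting error only. In tumours Serpine2 means lay between 7.16 ± 2.94 RPM (day 4 wild type) and 18.3 ± 9.20 RPM (day 4 knockout), with every neighbouring pair of groups overlapping. Timp3 means lay between 11.1 ± 2.26 RPM (Rag1-/- knockout) and 54.6 ± 28.3 RPM (day 4 knockout), again overlapping step by step. In the same cultured cells the summed pericyte markers were at 6.25 to 16.7 RPM, against 46.0 to 459 RPM in the tumours, and the summed fibroblast markers at 447 to 1084 RPM against 1082 to 18648 RPM. The fibroblast sum in culture came mainly from genes read in the cultured cells themselves. Mean normalized counts there for wild type and knockout were 9975 and 4903 for Acta2, and 1765 and 17032 for Col1a1. They were 2523 and 3671 for Pdgfra, and 2384 and 2835 for Pdgfrb, while Lum, Postn and Thy1 were at 0. The part of pericytes and fibroblasts in the levels of Serpine2 and Timp3 was not tested.

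The comparisons within each table used normalized read counts, which are reads scaled by the authors with 1 size factor for each library, and limma on log2(normalized count + 1) with Benjamini-Hochberg adjustment over all genes tested. In Rag1-/- hosts both activator genes rose in knockout tumours and no other member was called, so 2 of 7 were called, both higher, where 22.7% of 12795 genes tested were called, 11.3% higher and 11.4% lower. At day 4 none of the 7 was called, where 0.0354% of 14105 genes were. In culture none of the 5 testable members was called (0.327% of 11911 genes), and at day 6 none of 7 (0.0% of 14155 genes). At an unadjusted p under 0.05 the counts were 1 member in culture (18.8% of all genes), 2 in Rag1-/- hosts (36.1%), 3 at day 4 (15.0%) and none at day 6 (8.6%). Groups that did not overlap were found for 1 of 5 members in culture, 1 of 7 in Rag1-/- hosts, 1 of 7 at day 4 and none at day 6, where 36.2%, 15.0%, 5.76% and 3.9% of genes had them. The median log2 difference over the members was 0.33 in culture, −0.02 in Rag1-/- hosts, −0.14 at day 4 and 0.17 at day 6, and over all genes tested it lay between −0.01 and 0.0035. By the authors' deposited table, members with an adjusted p under 0.05 numbered 1, 2, 2 and 0 in culture, Rag1-/- hosts, day 4 and day 6, where 2.711%, 8.78%, 2.864% and 0.6132% of all rows were under it. DESeq2 on recovered reads called 3 members at day 4, where it called 4.95% of 13911 genes, and the same number as limma in culture, Rag1-/- hosts and day 6, where it called 8.86%, 24.8% and 1.18% of genes.

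**Figure D2:**
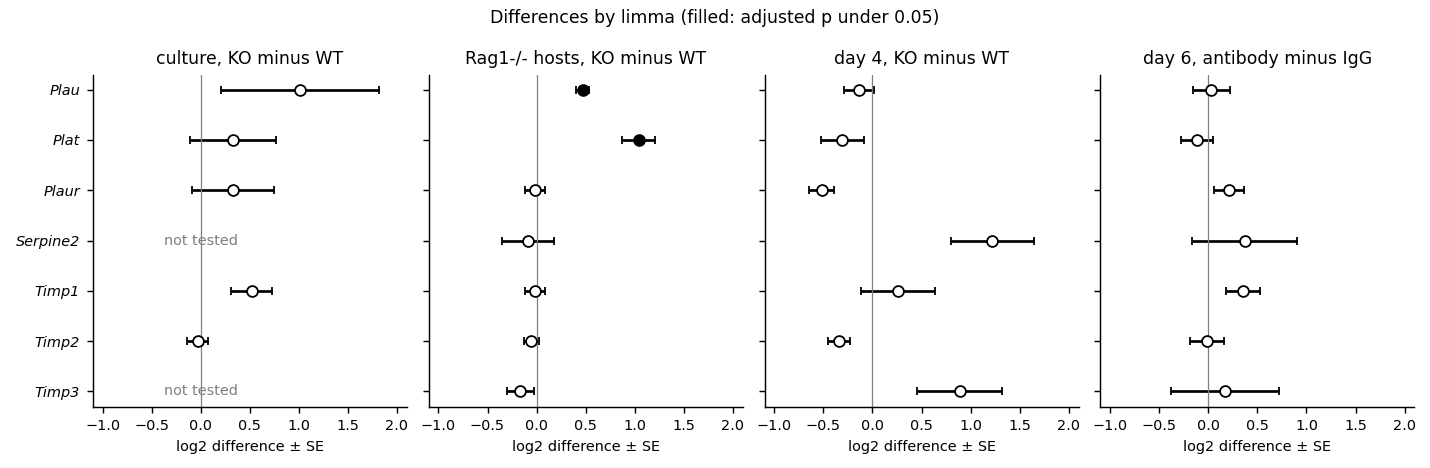
Log2 difference with its standard error for each gene in the 4 comparisons, by limma; filled points have an adjusted p under 0.05. Only Plau and Plat in Rag1-/- hosts are filled, at 0.47 and 1.04, and the culture panel has no test for Serpine2 and Timp3.

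Plau, the urokinase gene, separated the groups in Rag1-/- hosts. Its normalized counts were 1734, 1559, 1676, 1544 and 1599 for wild type, against 2340.4, 2644, 2030.3, 2172 and 2078 for knockout. Every knockout library lay above every wild-type library, as 15.0% of genes tested did in one direction or the other. The mean rose from 1622 ± 80.6 (SD, n = 5) to 2253 ± 249 (n = 5), a log2 difference of 0.47 (SE 0.07, limma adjusted p = 0.000423). Its nearest tested neighbours on chromosome 14, Camk2g and Vcl, differed by −0.08 and 0.07 and were not called.

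Plat, the tPA gene, had the larger difference. Its normalized counts in Rag1-/- hosts were 899, 696, 918, 1355 and 946 for wild type, against 2428, 2257, 1314, 1952 and 1944 for knockout. The lowest knockout library fell below the highest wild-type one, and the other 4 knockout libraries lay above all wild-type libraries. The mean rose from 963 ± 240.2 to 1979 ± 425, a log2 difference of 1.04 (SE 0.17, limma adjusted p = 0.000895). The neighbouring genes Ikbkb and Ap3m2 differed by 0.06 and 0.13 without a call. Both calls held in all 20 alternative settings, with Plau at 0.41 to 0.50 and Plat at 0.93 to 1.18. In these tumours the summed endothelial markers ranged over 476 to 541 RPM for wild type and 471 to 523 RPM for knockout. Pericyte markers ranged over 77.1 to 100.3 and 87.7 to 105 RPM, and fibroblast markers over 1256 to 2048 and 1082 to 1696 RPM. Among all genes tested in Rag1-/- hosts 11.4% were called lower and 11.3% higher. Of 12 endothelial, 6 pericyte and 14 fibroblast markers tested there, 1, 0 and 3 were called lower and 0, 0 and 1 higher. The fibroblast calls were Pdgfra, higher, and Pdgfrb, Acta2 and Dpt, lower, and the endothelial call was Eng. All of these but Dpt were also well read in cultured E0771 cells, so the calls are not of host cells alone. The part of endothelial cells, pericytes and fibroblasts in the activator differences was not tested.

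At day 4 in C57BL/6 hosts neither activator gene was called. Wild-type tumours had Plau counts of 3170.1, 3691, 3704 and 5265 and knockout tumours counts of 3847, 2923, 3737, 3857 and 3385, a log2 difference of −0.14 (SE 0.15, limma adjusted p = 0.699). The Plat counts were 6796, 7037, 6663 and 9659.6 for wild type, against 8569.9, 3739, 5528, 6649.7 and 6724 for knockout, a difference of −0.31 (SE 0.22, adjusted p = 0.549). The groups overlapped for both genes.

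Whether the knockout effect differed between the hosts was tested in 1 limma fit over the 4 groups, where 4.26% of 11247 genes were called. Of the 7 members 2 were called. The Plat effect was lower at day 4 than in Rag1-/- hosts by a log2 difference of −1.35 (SE 0.30, adjusted p = 0.0151), a call that held in all 26 alternatives (adjusted p 0.00652 to 0.0408). For Plau the difference of effects was −0.61 (SE 0.16, adjusted p = 0.0420). That call was lost in 14 of 26 alternatives, with adjusted p up to 0.0807: without the variance trend, with upper-quartile rescaling, and without any one of wild-type libraries 1 to 5 or knockout libraries 1, 2, 4 or 5 in Rag1-/- hosts, or wild-type 2, wild-type 4 or knockout 2 at day 4. The Plaur difference of effects, −0.50 (SE 0.17, adjusted p = 0.100), was called without Rag1-/- wild-type library 4 (−0.60) or without day 4 wild-type library 1 (−0.61). For Timp3 it was 1.05 (SE 0.46, adjusted p = 0.201), and 1.35 with a call without day 4 knockout library 3. Host strain, time, transplantation and table all differ between these sets and cannot be told apart.

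**Figure D3:**
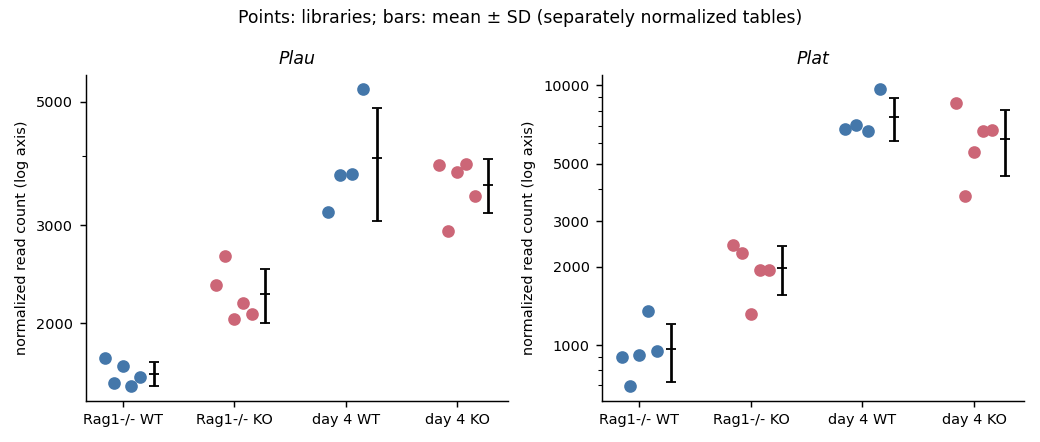
Normalized read counts of Plau and Plat on log axes in tumours of Rag1-/- and C57BL/6 day 4 hosts; points are libraries and bars are mean ± SD, and the 2 hosts come from separately normalized tables. Knockout points sit above wild-type points in Rag1-/- hosts for Plau in all 5 libraries and for Plat in 4 of 5, and the groups overlap at day 4.

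In culture the E0771-P library stood above all others for both activator genes and the receptor gene. Plau was at 7368 in E0771-P, 1102 in EV and 975 in Ctrl, and at 4222 and 3828 in the knockout libraries 3-6 and 3-7. Plat was at 2203, 955 and 695 against 1542 and 1320.1, and Plaur at 7541, 2827 and 2719.9 against 5315 and 4453. For all 3 genes the E0771-P library lay above both knockout libraries and the other wild-type libraries lay below them. The log2 differences were 1.01 (SE 0.81, limma adjusted p = 0.553) for Plau, 0.33 (SE 0.44, adjusted p = 0.742) for Plat and 0.33 (SE 0.42, adjusted p = 0.732) for Plaur. Without the E0771-P library they were 1.95 (SE 0.11, adjusted p = 0.00147), 0.81 (SE 0.17, adjusted p = 0.0290) and 0.81 (SE 0.11, adjusted p = 0.00941), and the count of members called went from 0 to 4. The same omission took the count over all genes from 39 to 1655. The summed neutrophil list was at 276 RPM in E0771-P and 53.5 to 153 RPM in the other 4 cultures. Most of it was the protease gene Mmp9, with mean normalized counts of 4276 for wild type and 3608 for knockout. S100a8 was next, at 89.8 and 37.0, and Csf3r, Retnlg and Camp were at 0 in all 5 cultures. In culture this sum was therefore mainly a measure of Mmp9, and its relation to the activator values was not tested. In the authors' deposited table Plau had an adjusted p of 0.03 in culture. The difference between the effects in Rag1-/- hosts and in culture was not called for any of the 5 members tested (4.56% of 11490 genes were), with Plau at −0.54 (adjusted p = 0.682) and Plat at 0.71 (adjusted p = 0.373). Without the E0771-P library that of Plau became −1.49, that of Plaur −0.83 and that of Timp1 −0.75, all 3 called.

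**Figure D4:**
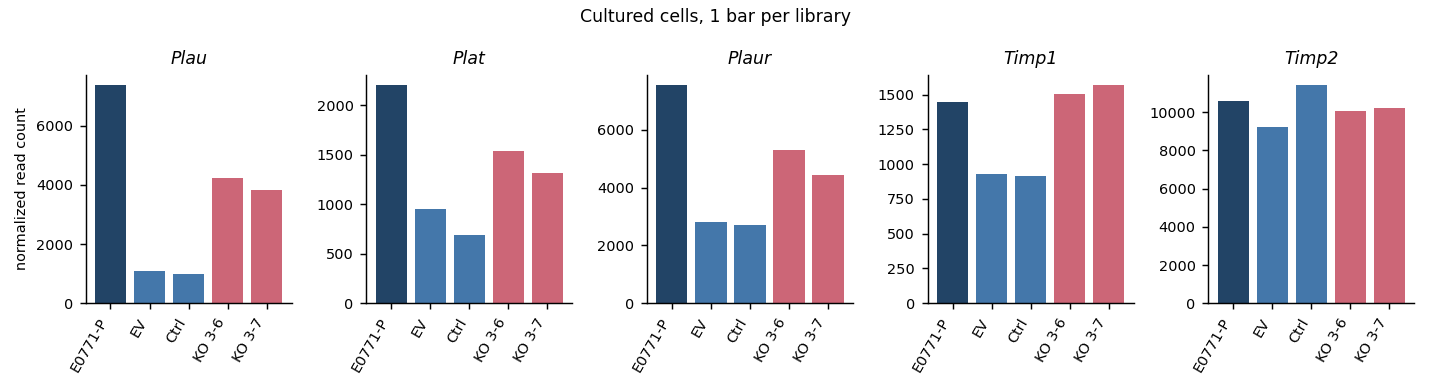
Normalized read counts of 5 genes in the 5 cultured libraries, 1 bar each from 0; dark blue is the E0771-P library, lighter blue the other wild-type libraries, red the knockout libraries. The E0771-P bar is the tallest for Plau, Plat and Plaur, Timp1 is higher in both knockout libraries than in all 3 others, and Timp2 is nearly level.

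At day 6 Plau was at 2683, 3241, 4044 and 3184 under IgG and at 2421, 3730.5, 3152 and 4296 under antibody, a log2 difference of 0.03 (limma adjusted p = 0.957). Plat was at 2772, 2325, 2766 and 2727 under IgG and at 3149, 2601, 2315 and 1852 under antibody, a difference of −0.12 (adjusted p = 0.769). The antibody libraries ran both higher and lower than the IgG libraries for each gene.

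Plaur, the urokinase receptor gene, had its clearest separation at day 4. Wild-type tumours had counts of 7808, 9537, 10988 and 11290.2, against 6960.03, 6387, 7601, 6222 and 7126 for knockout tumours. All 5 knockout libraries lay below all 4 wild-type libraries, as was so in one direction or the other for 5.76% of genes tested. The log2 difference was −0.52 (SE 0.12), with an unadjusted p of 0.00191 and a limma adjusted p of 0.153, so it did not pass. It passed with DESeq2 on recovered reads (−0.53, adjusted p = 0.00542) and in the authors' deposited table (adjusted p = 0.0092). Over the alternatives the difference stayed between −0.63 and −0.41. At day 4 the fibroblast markers lay above 0 for 13 of 14, the endothelial for 12 of 12 and the adipocyte for 10 of 10, with medians of 0.73, 1.20 and 3.56 and none called. Over all tumour libraries, each centred on its group, Plaur had a correlation of −0.56 with the summed fibroblast list. The part of these cells in the Plaur and Timp2 differences at day 4 was not tested. The gene next to Plaur on one side, Cadm4, differed by 0.03, and that on the other side, Smg9, by −0.35 (adjusted p = 0.296). Plaur means in Rag1-/- hosts were 3634 ± 624 and 3569 ± 418, a log2 difference of −0.02 (adjusted p = 0.920), while its neighbours Kcnn4 and Cadm4 were called at −0.36 and 0.62. At day 6 the difference was 0.21 (adjusted p = 0.566), from 6058 ± 565 to 7087 ± 1477.

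Serpine2, the protease nexin-1 gene, had day 4 counts of 83.4, 170.04, 261 and 169 for wild type, against 551, 632, 207, 451 and 213 for knockout. Knockout libraries 1, 2 and 4 lay above all wild-type libraries, and the other 2 lay among them. The log2 difference was 1.22 (SE 0.42), with an unadjusted p of 0.0156 and a limma adjusted p of 0.238. With DESeq2 the adjusted p was 0.0484, and in the authors' deposited table it was 0.0421. The same 3 knockout libraries had the highest summed pericyte markers, at 459, 317 and 393 RPM against 46.0 to 137 RPM in the other 6 libraries. They also led the endothelial markers, at 1534, 1037 and 1164 RPM against 244 to 611 RPM. Of the 12 endothelial markers tested all 12 lay above 0 with a median of 1.20, and of the 6 pericyte markers all 6 with a median of 1.14, none of them called. Fibroblast markers were at 17966 and 18648 RPM in knockout libraries 1 and 4, at 13998 RPM in knockout library 2 and at 14261 RPM in wild-type library 1, and between 4003 and 5231 RPM in the rest. Macrophage and monocyte markers split the same way, at 3993, 4379 and 4988 RPM in knockout libraries 1, 2 and 4. They were at 4825 RPM in wild-type library 1 and at 1728 to 2612 RPM in the rest. T cell markers, all low, were at 6.06, 11.3, 8.90 and 7.86 RPM in these libraries and at 1.63 to 3.27 RPM in the rest. Knockout libraries 1, 2 and 4 also led the adipocyte markers, at 841, 6249 and 3890 RPM against 131 to 670 RPM, and the mast cell markers, at 43.8, 59.5 and 36.8 RPM against 5.97 to 18.5 RPM. Of the adipocyte markers 10 of 10 tested lay above 0 with a median of 3.56, and of the mast cell markers 5 of 5 with a median of 0.76, none called. The red blood cell list was at 34.4, 78.2 and 54.8 RPM in these libraries against 2.02 to 12.9 RPM, with its 4 globin genes at 0 in all. The part of these cells in the Serpine2 values was not tested.

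The Rag1-/- tumours had Serpine2 counts of 208, 179.7, 114, 147 and 170.1 for wild type, against 98.1, 229, 274, 116 and 111 for knockout. The knockout libraries spread to both sides of the wild-type range, with a log2 difference of −0.08 (SE 0.27, limma adjusted p = 0.853). At day 6 the means were 364 ± 204 under IgG and 513 ± 308 under antibody, a difference of 0.37 (adjusted p = 0.782).

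Timp2, the inhibitor that also takes part in activating pro-MMP2 at the cell surface, had day 4 counts of 18174, 17987, 17451 and 14157 for wild type, against 12235, 12776, 13677, 12808 and 15279 for knockout. Knockout libraries 1 to 4 lay below all wild-type libraries, and library 5 lay above the lowest of them. The log2 difference was −0.34 (SE 0.11), with an unadjusted p of 0.0123 and a limma adjusted p of 0.224. DESeq2 gave an adjusted p of 0.0487 and the authors' deposited table had 0.0717. Elsewhere Timp2 moved little: its log2 difference was −0.03 in culture (adjusted p = 0.911), −0.05 in Rag1-/- hosts (adjusted p = 0.641) and −0.01 at day 6 (adjusted p = 0.981). Means were 10414 ± 1100.2 and 10158 ± 125 in culture, 18882 ± 1625 and 18217 ± 1669 in Rag1-/- hosts, and 30814 ± 5662 and 30493 ± 4846 at day 6.

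Timp1, the inhibitor gene long known as inducible by growth factors and cytokines, was higher in both knockout cultures than in any wild-type culture. It was at 1446 in E0771-P, 929.8 in EV and 912 in Ctrl, and at 1502 and 1566 in 3-6 and 3-7. The groups did not overlap, as was so for 36.2% of genes in culture, and the log2 difference was 0.52 (SE 0.21, unadjusted p = 0.0436, limma adjusted p = 0.252). Without the E0771-P library it was 0.74 (adjusted p = 0.0109). Means in Rag1-/- hosts were 1052 ± 82.1 and 1053 ± 194, a difference of −0.01 (adjusted p = 0.939).

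At day 4 the Timp1 counts were 3511, 3615, 6008 and 9267 for wild type, against 12099, 6544, 3294, 6317 and 5425 for knockout. The groups overlapped (log2 difference 0.26, limma adjusted p = 0.779). Wild-type library 4 and knockout library 1, highest for Timp1, were also highest for the summed neutrophil markers, at 654 and 416 RPM against 122 to 239 RPM in the other 7 libraries. Of the 11 neutrophil markers 7 were tested at day 4, 2 above 0 and 5 below, with none called. Knockout library 1 was also the highest for the endothelial (1534 RPM) and pericyte (459 RPM) markers, where wild-type library 4 was at 599 and 137 RPM. The part of these cells in the Timp1 levels was not tested. At day 6 Timp1 was at 1859, 2138, 1875 and 1793 under IgG and at 2664, 3188, 1769.98 and 2392 under antibody, with 3 of 4 antibody libraries above all IgG libraries. The log2 difference was 0.36 (SE 0.17, unadjusted p = 0.0675, adjusted p = 0.517).

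Timp3, the inhibitor that binds to the extracellular matrix, had day 4 counts of 1009, 478, 339.995 and 742 for wild type, against 1890.3, 1048, 479.95, 1828 and 904 for knockout. Knockout libraries 1, 2 and 4 lay above all wild-type libraries. They were the same libraries as for Serpine2 and for the pericyte, endothelial, adipocyte and mast cell lists. These libraries and wild-type library 1, next in Timp3 after knockout library 2, had the highest fibroblast sums, at 17966, 13998, 18648 and 14261 RPM. They also had the highest macrophage and monocyte sums (3993, 4379, 4988 and 4825 RPM) and T cell sums (6.06, 11.3, 8.90 and 7.86 RPM). Over the 27 tumour libraries, each centred on its group, Timp3 had a correlation of 0.62 with the fibroblast list. With the pericyte, endothelial, adipocyte and mast cell lists it was at 0.26, 0.25, 0.10 and −0.12. With the macrophage and monocyte list it was at 0.24 and with the T cell list at −0.04. The part of all these cells in the Timp3 values was not tested. The log2 difference was 0.89 (SE 0.43, limma adjusted p = 0.370). At day 6 a single antibody library, at 4035, stood apart from the others, which ran from 589 to 875 under antibody and from 668 to 1718 under IgG. The log2 difference was 0.17 (adjusted p = 0.910), and −0.43 (adjusted p = 0.444) without that library. Means in Rag1-/- hosts were 259 ± 42.5 and 233 ± 47.0, a difference of −0.16 (adjusted p = 0.422).

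Other genes of the pathway were followed in 4 lists. Of 17 tested genes of the plasminogen system beside the members, 5 were called higher and 1 lower in Rag1-/- hosts, with a median of 0.01. Among all genes tested there 11.3% were called higher and 11.4% lower. The endocytic receptor gene Lrp2 differed by 2.16, the membrane serine protease gene St14 by 0.82 and the integrin genes Itgb3, Itgav and Itgb1 by 0.66, 0.24 and 0.17, while Igf2r, a receptor that binds uPAR, fell by 0.32. The plasminogen gene itself, Plg, was listed at 0 in every library there and at day 4. None of 13, 23 and 23 tested genes of the list was called in culture, at day 4 and at day 6. The tissue factor gene F3 had the smallest p at day 4 (−0.80, adjusted p = 0.107), and Vtn, the gene for vitronectin, was at 1.59 (adjusted p = 0.235).

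Of 22 other protease inhibitor genes tested in Rag1-/- hosts, 4 were called higher and 4 lower, beside 11.3% and 11.4% of all genes tested. Serpind1, the heparin cofactor II gene, differed by 1.90, Serpinb6b by 0.76 and Tfpi, the tissue factor pathway inhibitor gene, by 0.18. Slpi, the secretory leukocyte protease inhibitor gene, fell by 0.67, Wfdc2 by 0.49 and Spint2, which inhibits matriptase and hepsin, by 0.42. No gene of the list was called elsewhere. At day 4 the list's median was 0.35, with 21 of 26 above 0, and Serpinb5, the maspin gene of epithelia, had a difference of 5.22 (SE 0.87, limma adjusted p = 0.0785). Spint1 was at 1.51 (adjusted p = 0.153). At day 4 the summed keratinocyte markers ran from 15.3 to 674 RPM for knockout and from 0.946 to 3.28 RPM for wild type, and at day 6 at 2.57 to 215 RPM under antibody and 1.29 to 3.63 RPM under IgG. All 7 keratinocyte markers tested at day 4 and all 9 at day 6 lay above 0, none called. At day 6 Serpinb5 differed by 3.92 (adjusted p = 0.517). Of 8 luminal epithelial markers tested, 6 lay above 0 at day 4 and 8 at day 6, with medians of 3.21 and 2.82 and none called. Their sums at day 4 ran over 489 to 634 RPM for wild type and 484 to 726 RPM for knockout. Krt8, also read in cultured cells, made up most of these sums, with mean counts of 12877 and 11304. It differed by −0.22 and Elf3 by −0.12, while Krt18, Krt19, Epcam and Cldn4 differed by 4.43, 3.49, 3.59 and 5.23. The sums therefore say little about the markers other than Krt8. At day 6 the luminal sums ran over 186 to 208 RPM under IgG and 187 to 542 RPM under antibody. The part of skin cells or other epithelial cells in the Serpinb5 values was not tested.

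Among 24 metalloproteinase genes tested in Rag1-/- hosts, 5 were called higher and 2 lower, beside 11.3% and 11.4% of all genes tested. Mmp13, a collagenase gene, differed by 0.91, Adamts12 by 1.13, Adamts1 by 0.33, Adamts4 by 0.25 and Adam9 by 0.17, while Mmp11 fell by 0.45. None was called in culture (16 tested), at day 4 (26) or at day 6 (25). The smallest p in culture were those of Mmp19, at −1.23 (limma adjusted p = 0.0811), and Mmp11, at −0.59 (adjusted p = 0.139). At day 4 they were those of Mmp11, at −0.57 (adjusted p = 0.190), and Mmp15, at 1.55 (adjusted p = 0.256). Among 16 TGF-beta and AP-1 genes tested in Rag1-/- hosts, Ets1, an ETS transcription factor gene, rose by 0.41, while Ets2 fell by 0.20 and Myc by 0.28. At day 4 none of 16 was called, 15 lay below 0 and their median was −0.34. Tgfbi, a matrix gene induced by TGF-beta, was lowest in p at −0.70 (adjusted p = 0.106).

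Over the 27 tumour libraries, with each library centred on its own group, the members did not move as a block. The pair with the largest correlation was Plau with Timp2 (Pearson r = −0.58), followed by Serpine2 with Timp2 (−0.55) and Plau with Plaur (0.47). Plau with Timp2 had the other sign within Rag1-/- hosts, at 0.21, and was at −0.68 within day 4 and −0.77 within day 6. Serpine2 with Timp2 was at −0.25, −0.54 and −0.69 in that order. Plau with Plat was at 0.20 over the 27 libraries, at 0.74 within day 4 and at −0.66 within day 6. These values describe libraries that share table, depth and tissue makeup. Among marker lists Timp2 ran opposite to the neutrophil list (−0.76), and Timp1 and Plau ran with it (0.69 each). Timp1 also ran with the endothelial (0.65) and pericyte (0.60) lists. Timp3 ran with the fibroblast list (0.62). Serpine2 ran with the pericyte list (0.67) but not with it alone. It was at 0.62 with the mast cell, 0.59 with the neutrophil, 0.56 with the adipocyte and 0.56 with the endothelial list. With the macrophage and monocyte list it was at 0.55 and with the T cell list at 0.54.

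**Figure D5:**
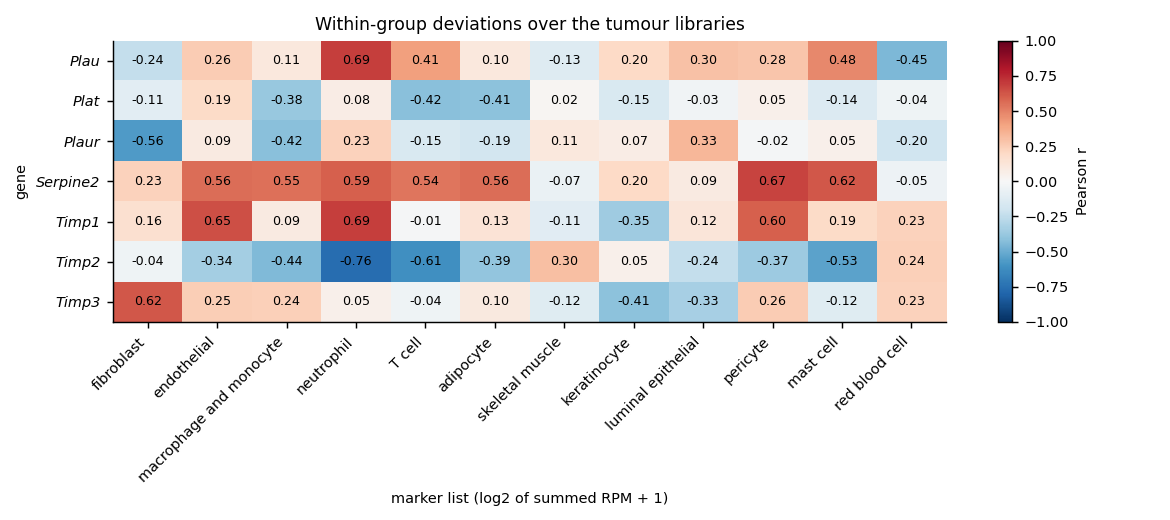
Pearson correlation of each gene with the summed level of each marker list over 27 tumour libraries, both centred on the mean of the library's group; red is positive and blue negative. Timp2 is lowest for neutrophils at −0.76, while Plau and Timp1 are at 0.69 there, and Plat ranges from −0.42 for T cells to 0.19 for endothelial cells.

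By the same measure among 9737 genes, the genes most like Plau were Ccnl2 (r = 0.85), Acsbg1 (0.82) and Ccnl1 (0.79). Within Rag1-/- hosts alone those were at 0.38, 0.35 and 0.39. The genes most like Plat were Fhdc1 (0.85), Tes (0.85) and Slc9a2 (0.84), and those most like Plaur were Prr3, Gprc5a and Sh2d5 (0.78 each). Serpine2 was most like Tmem140 (0.85), Tspan7 (0.85) and Notch3 (0.81), a gene of the pericyte list. Timp1 was most like S100a8 (0.78), a gene of the neutrophil list, Icam2 (0.74) and Bmp2 (0.72). These rested mostly on day 4, at 0.93, 0.83 and 0.96. Within Rag1-/- hosts the same genes were at 0.22, 0.39 and 0.30, and within day 6 at 0.45, 0.32 and 0.51. Timp2 was most like Cd99l2 (0.83), Scara3 (0.81) and Col6a1 (0.80), a collagen VI gene. Timp3 had the closest followers, Phldb2 (0.90), the thrombomodulin gene Thbd (0.88) and the fibronectin gene Fn1 (0.85). Within Rag1-/- hosts alone these were at 0.55, 0.54 and 0.45.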

How the data were processed

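Messenger RNA was sequenced with a kit that keeps strand, per the labels' protocols. The submitters' processing notes name CASAVA, TopHat, DESeq2 and the genome build mm10, with roles that the sources used here do not give. The deposited values, a read-count signal per gene, are counts divided by a size factor for each library, in 4 separately normalized tables. Whole reads were recovered for all values of the 32 libraries within 0.01, and gave depth and RPM. No 2 libraries of the same group agreed within sampling noise, and pairs from different groups were not compared. The authors' p-value columns were copied from the deposited tables, and 18 columns of the authors' means and fold changes were not used.

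limma 3.58.1 with a variance trend was fitted in R 4.3.3 to log2(normalized count + 1), for genes with a mean of 10 or more, on the 2 groups of each table, with two-sided p-values adjusted over all genes (Benjamini-Hochberg, adjusted p under 0.05). Differences are therefore on the log2(value + 1) scale, which understates changes of low genes. Differences of effects came from 1 fit over the 4 groups of 2 tables. The test was tested on simulated data. Alternatives were other pseudocounts (0.5 and 5), no filter or a minimum mean of 50, upper-quartile and quantile rescaling, no trend, count tests on the recovered reads (edgeR 4.0.16 and, separately, DESeq2 1.42.0), a replicate block, and leaving out each library. Every member is named, and of each list the genes called in a comparison (at most the 6 of smallest p) or, with none called, the 2 of smallest p. Others named were chosen after their values were seen: Plg. Some genes of the lists are not reported by name here. Neighbours are the nearest tested gene on each side, and likeness used genes with a mean of 50 or more. Gene positions are from GENCODE M21 for GRCm38. The members, lists and tests were chosen with earlier results of these data known.

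The marker lists were fibroblast, endothelial, macrophage and monocyte, neutrophil, T cell, adipocyte, skeletal muscle, keratinocyte, luminal epithelial, pericyte, mast cell and red blood cell. They are used as summed levels, and limits are for counting error only.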

Additional observations from a re-analysis of the deposited data

Results flagged for a closer look

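Of 42 sets of a member and a group tested for a library far from the others, on the log2 scale, 4 had one, and chance gives about 5 in 100. In day 4 wild-type tumours library 4 was the highest for Plat, at 9660 normalized counts (9659.62), and the lowest for Timp2, at 14157. In day 6 IgG tumours library 2 was the lowest for Plat, at 2325. Among day 6 antibody tumours library 2 was the highest for Plaur, at 9289.81. The knockout effect at day 4 minus that in Rag1-/- hosts differed from 0 for Plau, at −0.61, and for Plat, at −1.35, by the test of the difference itself.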

How the results depend on the processing

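With each library left out in turn, the members changed numbered 0 to 4 in culture, 2 in Rag1-/- hosts, and 0 at day 4 and day 6, and the genes changed numbered 2 to 1655, 1984 to 3093, 3 to 50 and 0 to 5. DESeq2 gave 1055 genes in culture (39 with limma), 689 at day 4 (5) and 166 at day 6 (0), and 3 members at day 4. edgeR gave 25 genes in culture and limma without the trend 12. At day 4 there were 9 genes with no filter. The replicate block gave 2 genes at day 4 and moved no other count by over 1.5 times. Replicate numbers showed no steady pairing of the samples. Deviations of same-numbered libraries correlated between −0.20 and 0.15 (Rag1-/-), between −0.17 and 0.14 (day 4) and between −0.20 and 0.45 (day 6). Of these, 1 of 5, 0 of 4 and 2 of 4 correlated best with their own number. Deviations centred on so few libraries could miss a weak pairing, and at day 6 the check did not decide. Members differing between day 4 and Rag1-/- hosts numbered 1 without the trend and 1 with upper-quartile rescaling, against 2, and 1 to 3 with a library left out. Those differing between Rag1-/- hosts and culture numbered 0 to 3. The alternatives for these differences, other than the trend, were chosen after seeing the data.

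Every value that changed sign was without a call on both sides. In Rag1-/- hosts DESeq2 gave 0.015 for Serpine2 and 0.00063 for Timp1, edgeR 0.0064 for Serpine2, quantile rescaling 0.019 for Plaur and 0.025 for Timp2, and upper-quartile rescaling 0.0014 for Timp1. Upper-quartile rescaling gave 0.049 for Timp2 at day 6 and 0.022 for the Timp2 difference between Rag1-/- hosts and culture, for which edgeR gave 0.13 for Plau. With a library left out in turn, ranges that crossed 0 were, in culture, −0.024 to 0.81 for Plat and −0.11 to 0.038 for Timp2. They were, in Rag1-/- hosts, −0.078 to 0.078 for Plaur, −0.30 to 0.071 for Serpine2, −0.11 to 0.049 for Timp1 and −0.085 to 0.0040 for Timp2. At day 4 Plau ranged from −0.24 to 0.0074. At day 6 the ranges were −0.091 to 0.18 for Plau, −0.24 to 0.014 for Plat, −0.087 to 0.11 for Timp2 and −0.43 to 0.50 for Timp3, and the Timp2 difference between Rag1-/- hosts and culture ran from −0.091 to 0.062. Plat in culture without the E0771-P library is the only end of these ranges that was called.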
